A study of Drosophila melanogaster with 16 samples.

Results

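The transcripts described here were lower in both brain RNA replicates of prickle-spiny legs flies than in both control replicates. They numbered 93 of 16637 transcripts measured above the table minimum, out of 21051 in the deposited table. They were chosen by the values themselves: the 4 arrays of each biological replicate were averaged on the log2 scale, and a transcript was taken when the lower control mean exceeded the higher sple mean by at least 0.5 log2 units. This gap between the nearest replicate means is called the distance below. The share taken was 0.559% of the measured transcripts. Since the genotype contrast made the choice, that share and the genotype differences below describe the members and support nothing further.

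The study hybridised cDNA from dissected adult Drosophila melanogaster brains to single-colour arrays. The mutant flies carried pk sple1, a spontaneous allele of prickle, and are labelled bang sensitive, meaning that a mechanical shock brings on seizures or paralysis. The control flies were Oregon-R, a wild-type laboratory strain labelled as brown-bodied and red-eyed. Each genotype gave 2 biological replicates with 4 technical arrays apiece, 16 arrays in all, and both were kept at 25°C on malt-based food. The labels used here do not give sex, age in days, the number of brains in a replicate, or whether mutant and control shared a genetic background, so allele and background cannot be told apart. In whole-brain RNA, fewer cells of a type and less RNA per cell cannot be told apart either.

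Prickle is a core protein of planar cell polarity, the system by which cells of a sheet orient hairs and bristles along a common axis. The gene gives rise to alternative forms, among them Prickle and Spiny-legs, and the spiny-legs alleles affect the latter. In fly neurons, prickle forms have been linked to the direction of axonal transport along microtubules, and spiny-legs mutants to seizures.

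The deposited table names its rows by FlyBase transcript ID alone. RefSeq's genes for the fly assembly Release 6 plus ISO1 MT listed 49 of the IDs among gene synonyms, 44 of them measured, and 0 of the 93 members were among them. The members therefore have no gene names here, and they are given by rank, from the widest distance to the narrowest, with the 2 widest also given by ID. None of 20 lists of neuronal, glial, non-brain, planar polarity, seizure, stress and other genes had a transcript under 1 gene name, so the brain label could not be checked against markers, and any part of other tissues in these differences was not tested. The transcript of prickle itself was not among the named ones. Of the 16 transcripts listed under 1 gene, the nearest to membership was that of Wdr24, which encodes a component of a complex that relays amino acid supply to TOR signalling. Its distance was 0.13 log2 units, with replicate intensities of 6508 and 6248 in control and 5698 and 4825 in sple.

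Signal levels were even across the 16 arrays, whose median intensities over the measured transcripts ran from 4270 to 4682, and 0 pairs of arrays held identical values. The values were deposited after processing, so this evenness is no check on the arrays before it. Over the whole table, limma called 0% of transcripts at an adjusted p under 0.05 (0 of 16637, smallest adjusted p = 0.9997). An unadjusted limma p under 0.05 was found for 413 of the 16637, a smaller share than the 0.05 expected with no difference anywhere. No member thus passed this test of genotype over the table, which was fitted to the replicate means. The 2 replicates per genotype limit the precision of every value that follows.

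The member with the widest distance was FBtr0076454, a bright transcript in control brains and a moderate one in sple brains. Its replicate intensities, each the geometric mean of 4 arrays, were 12030 and 25427 in control and 2073 and 2298 in sple. On single arrays it ran from 11007 to 27013 in control, with a median of 18480, and from 2006 to 2607 in sple, with a median of 2130. The 2 sple replicates lay close together, the 2 controls far apart, and the lowest control array was still far above the highest sple array. The mean log2 difference, sple minus control, was -3.002, with standard deviations between replicates of 0.76 in control and 0.10 in sple (n = 2 each). The control mean was 8.01 times the sple mean.

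FBtr0076496 followed, with replicate intensities of 20281 and 37286 in control and 4853 and 3329 in sple. Its arrays ran from 18777 to 38522 in control, with a median of 29066, and from 3072 to 5078 in sple, with a median of 4093. All control arrays again lay above all sple arrays, and control replicate 2 was the highest of the 4 replicates. The log2 difference was -2.77, with standard deviations between replicates of 0.62 in control and 0.38 in sple (n = 2 each). These 2 transcripts had distances of 2.39 and 2.06 log2 units, and a further 8 members had distances between 1 and 2.

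The transcripts next to these 2 in ID number did not all share their pattern. The ID 1 below FBtr0076454 belonged to the member ranked 9, at 30417 and 37367 in control replicates and 15041 and 12054 in sple replicates, a log2 difference of -1.32. The ID 1 above it measured 12832 and 9877 in control and 11822 and 9998 in sple, with overlapping genotypes and a log2 difference of -0.05. On either side of FBtr0076496 the neighbouring transcripts had log2 differences of -0.35 and -0.62 and distances of 0.17 and 0.35, below the threshold of membership. Over all 93 members, 5 pairs stood next to each other in the ID order of measured transcripts, 4 of them with numbers 1 apart. Whether such neighbours belong to 1 gene is not known here, and probes shared between them could not be examined.

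**Figure D1:**
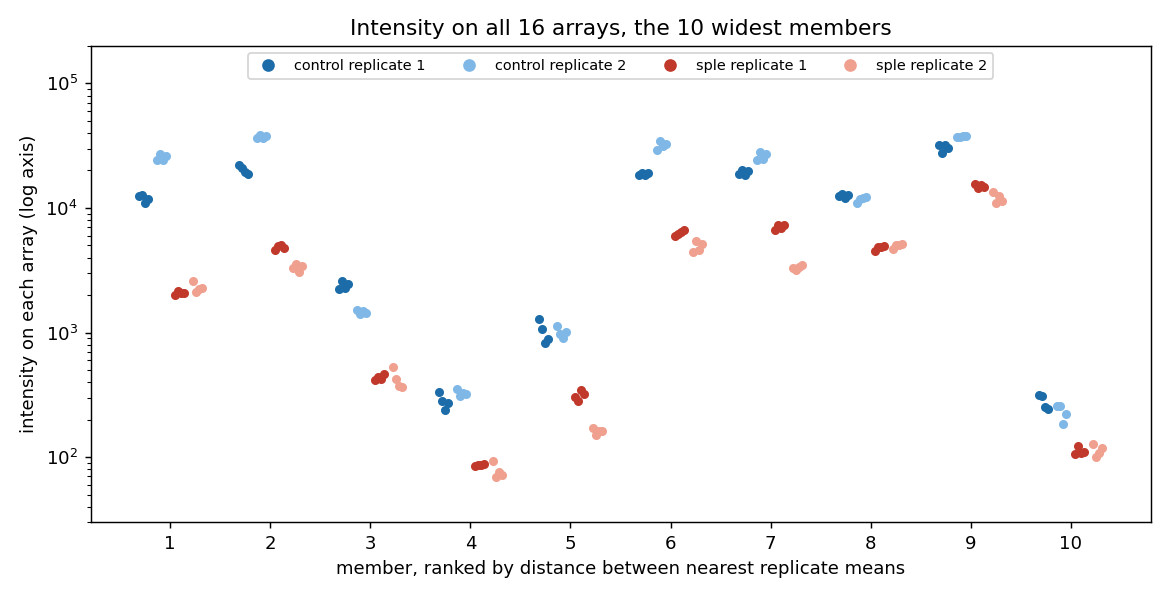
Intensity on each of the 16 arrays (log axis) for the 10 members with the widest distance, ranked along the horizontal axis, with 1 point per array coloured by biological replicate. The members fall into a bright set, with control arrays from 10967 upwards, and a dim set, and in each of the 10 the control arrays lie above the sple arrays.

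The other 8 members with a distance of 1 or more were of unlike brightness. The member ranked 3 measured 2390 and 1466 in control and 435 and 420 in sple, a log2 difference of -2.13. The member ranked 4 was dim, at 279 and 327 in control against 86.2 and 76.9 in sple, near the lowest intensity above the table minimum, 54.84. The member ranked 5 was level in control, at 997 and 997, and unlike between the sple replicates, at 313 and 161.

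The members ranked 6 and 7 were bright in control. The former measured 18697 and 31962 there, against 6317 and 4894 in sple. The latter measured 19217 and 26031 in control, against 7058 and 3321 in sple. In both, as in the 2 widest, control replicate 2 was the highest of the 4 replicates. The member ranked 8 had close replicates, at 12517 and 11745 in control and 4780 and 4980 in sple, with standard deviations of 0.065 and 0.042 log2 units (n = 2 each) around a log2 difference of -1.31. The member ranked 10 was dim again, at 278 and 228 in control and 112 and 113 in sple.

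**Figure D2:**
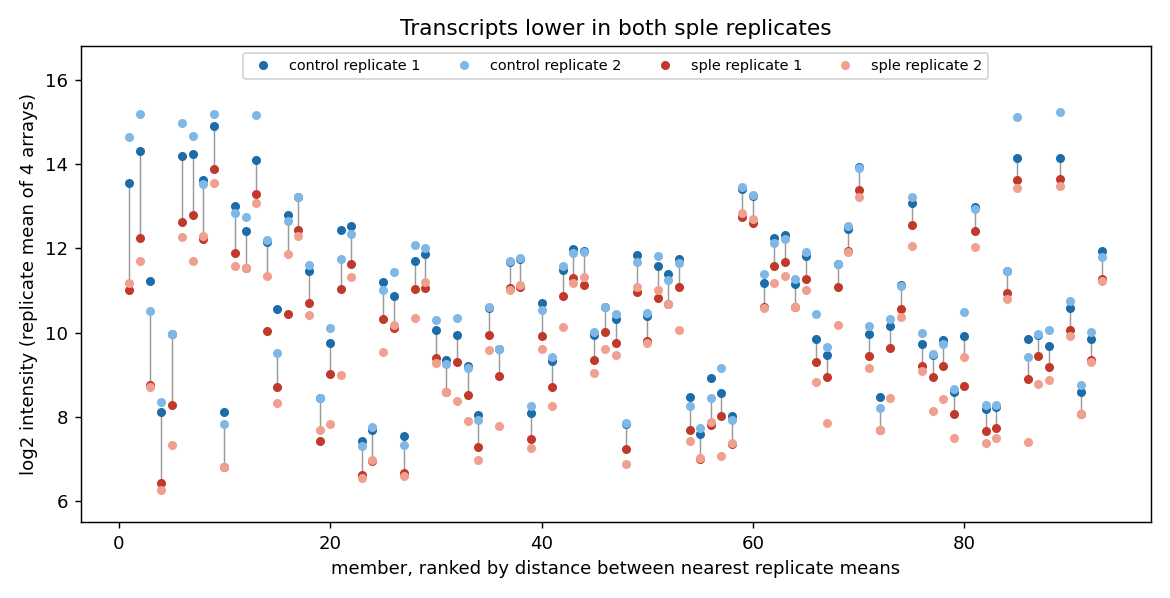
Log2 intensity of all 93 members in the 4 biological replicates (points, each a mean of 4 arrays), ordered by distance, with a grey line spanning the distance between the nearest control and sple means. Distances narrow quickly from 2.39 at the left, and 51 of the 93 members have distances between 0.5 and 0.6.

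Most members differed by far less than the widest. Distances lay between 0.75 and 1 for 9 members, between 0.6 and 0.75 for 23 and between 0.5 and 0.6 for 51, with a median of 0.59 over the 93. The median log2 difference was -0.84, a control mean 1.79 times the sple mean, and the differences ran from -0.57 to -3.002. Over all measured transcripts the median difference was -0.02. The control mean was at least 2 times the sple mean in 33 members and at least 4 times in 7. At the threshold itself, the last member inside had a distance of 0.5008, with 3899 and 3521 in control and 2489 and 2407 in sple. The first transcript outside had a distance of 0.4999, with 696 and 785 in control and 492 and 432 in sple. Within 0.05 log2 units of the threshold lay 31 members above it and 21 transcripts below it, so the edge of the group cuts through a continuous run of values.

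Single arrays followed the replicate means. In 92 of the 93 members all 8 sple arrays lay below all 8 control arrays, which held for 4.42% of all measured transcripts, and the other member overlapped by 0.035 log2 units. Because the rule had already set the replicate means apart, nothing is read from that count. Technical arrays of a replicate had median standard deviations over the members of 0.17 and 0.090 log2 units in control replicates 1 and 2 and of 0.065 and 0.12 in sple replicates 1 and 2. Over all measured transcripts below the median level these were 0.13, 0.093, 0.072 and 0.12. The control replicate 1 arrays thus spread most, among the members as among dim transcripts at large.

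Members were mostly of low to middling intensity. Their median over the 4 replicates was 1186, against 4454 for all measured transcripts, and 76 of the 93 (81.7%) lay below that overall median. With all measured transcripts ranked into 10 equal classes by level, 0 members fell in class 1, the dimmest, 11, 24, 24 and 17 in classes 2 to 5, and 1 in class 10. In control brains their mean intensities ran from 165 to 33714 with a median of 1622, and in sple brains from 81.4 to 13465 with a median of 900. Transcripts that were higher in both sple replicates by the mirrored rule numbered 132, or 0.793% of those measured. They too lay mostly below the overall median level, in 115 cases (87.1%), with a median of 1507. Their median log2 difference was 1.57, and 38 of them had a distance of 1 or more, against 10 of the members. The 2 groups were picked by the same threshold on the same replicates and are set side by side without a test.

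**Figure D3:**
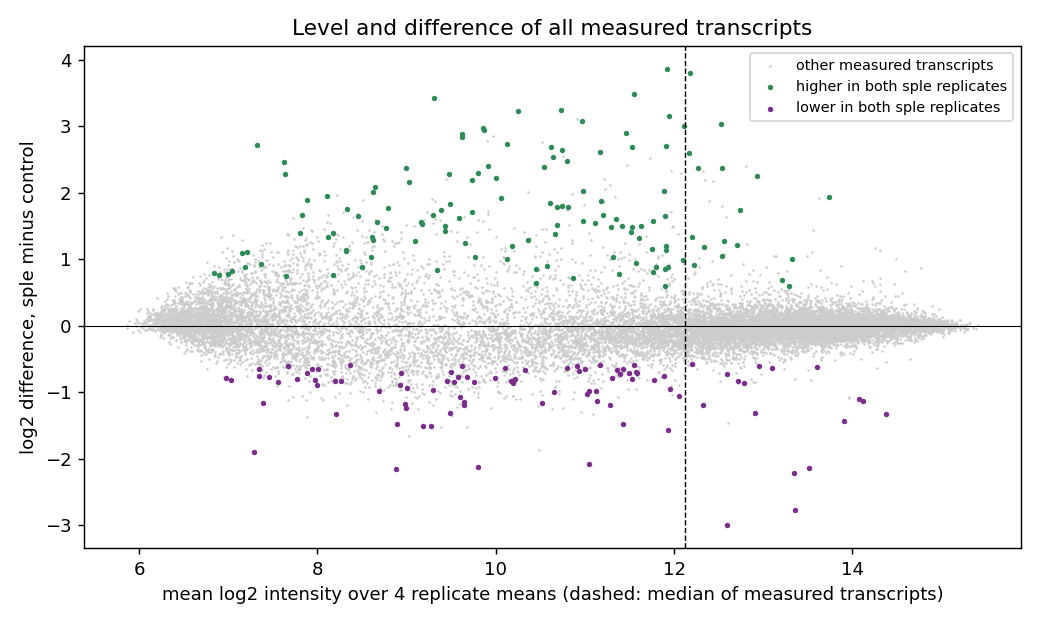
Log2 difference (sple minus control) against mean log2 intensity for all 16637 measured transcripts, with the 93 members in purple, the 132 transcripts higher in both sple replicates in green and the dashed line at the median level. Of the members 76 lie left of the line, while the 2 lowest points, at -3.002 and -2.77, lie right of it.

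A minority of members was bright. Control intensity was above 8192, that is 13 on the log2 scale, in 14 members, where 5947 measured transcripts reached it. These 14 held 6 of the 10 members with a distance of 1 or more, and their control means were 1.53 to 8.01 times their sple means, with a median of 2.34. Of the 132 transcripts higher in sple, 0 reached that intensity in control and 19 reached it in sple. Control replicate 2 exceeded control replicate 1 in 11 of the 14 bright members, in 56 of all 93 (60.2%) and in 52.7% of all measured transcripts. Sple replicate 2 lay below sple replicate 1 in 10 of the 14.

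The bright members included a set whose level also moved between the control replicates. In 6 members control replicate 2 exceeded control replicate 1 by 0.75 log2 units or more, and all 6 were bright. They ranked 1, 2, 6 and 13 by distance, with 2 others near the threshold, ranked 85 and 89, whose IDs were 1 apart. Their intensities ran from 12030 to 20281 in control replicate 1, from 25427 to 38549 in control replicate 2 and from 2073 to 12752 in the sple replicates. The gap between their controls was 0.77 to 1.09 log2 units, while sple replicate 2 minus 1 was -0.54 to 0.15. In 3 of the 6 the distance between genotypes was smaller than the gap between controls. These were the members ranked 13, with a distance of 0.80 and a gap of 1.06, 85, with 0.51 and 0.97, and 89, with 0.51 and 1.09. Gaps of this size and direction between the controls occurred in 322 of the 16637 measured transcripts and in 6 of the 132 higher in both sple replicates. Among bright transcripts 22 had such a gap, of which 16 were not members. In the 132, control replicate 2 exceeded control replicate 1 in only 27.3%. Their controls lay a median of 0.67 log2 units apart in either direction, against 0.14 over the members and 0.17 over all measured transcripts. Both rules used the control replicate means, so nothing is read from this contrast. The limit of 0.75 was set after the values were seen, and it counts 1 direction only. Of the 4 members whose controls lay at least 1 log2 unit apart, control replicate 1 was the higher in 1. That member, ranked 15, was not bright, at 1504 and 726 in control replicates 1 and 2.

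**Figure D4:**
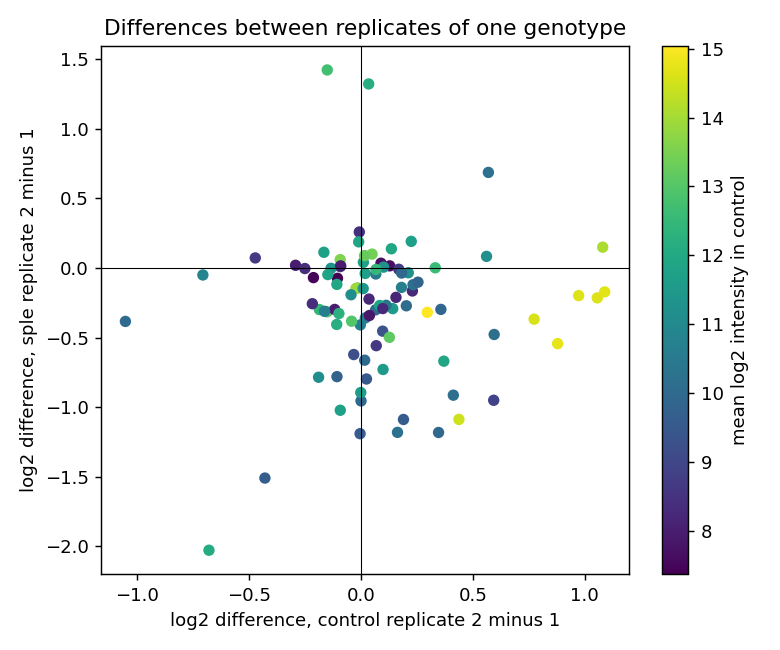
Log2 difference between replicates 2 and 1 of sple (vertical) against the same difference in control (horizontal) for the 93 members, coloured by mean log2 intensity in control. The 6 points at the right, with control differences of 0.77 to 1.09, are all bright, and most points lie below the horizontal line because sple replicate 2 was lower than replicate 1 in 71 members.

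The 2 sple replicates were not equally low. Sple replicate 2 lay below sple replicate 1 in 71 of the 93 members (76.3%), where this held for 53.3% of all measured transcripts, and the median of replicate 2 minus replicate 1 was -0.22 log2 units over the members and -0.035 over all. The median intensity of the members was 1037 in sple replicate 1 and 780 in sple replicate 2, against 1667 and 1562 in control replicates 1 and 2. In 8 members sple replicate 2 was lower than replicate 1 by 1 log2 unit or more, and in 2 the order was turned. The widest such gap was that of the member ranked 21, at 5501 and 3439 in control, 2081 in sple replicate 1 and 511 in sple replicate 2. The member ranked 16 was the reverse, at 7114 and 6413 in control, 1386 in sple replicate 1 and 3710 in sple replicate 2. The part of these replicate differences in the genotype differences was not tested. The rule used the sple replicate means, so their order among the members is not independent of the choice. Members lay mostly below the median level, while the comparison above is with transcripts of every level. Nothing is therefore read from these counts.

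Other members were nearly constant within each genotype. In 26 members the replicates of both genotypes lay within 0.2 log2 units of each other. The log2 difference of these ran from -0.57 to -1.31 with a median of -0.65, and their median intensity was 2461. The member ranked 8, described above, had the widest difference among them. The distance between genotypes exceeded the gap between replicates of either genotype in 68 of the 93 members, and in the other 25 at least 1 genotype's replicates lay as far apart as the genotypes or farther. The median standard deviation between replicates was 0.096 log2 units in control and 0.19 in sple over the members, and 0.13 and 0.33 over all transcripts below the median level. The rule sets the nearest replicate means apart and so favours transcripts with close replicates. Nothing is therefore read from these counts and spreads.

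The members were unevenly spread over the ID numbers, a property the rule did not use. IDs numbered 88000 to 88999 held 12 of the 93 members (12.9%) but 4.13% of the measured transcripts. Within that block 1.75% of 687 measured transcripts were members, against 0.508% of the 15950 outside it. The next highest share among the 29 blocks of 1000 IDs with at least 100 measured transcripts was 1.34%, or 5 of 372, and 5 of the 29 blocks held 0 members. The same block held 18 of the transcripts higher in both sple replicates, or 2.62%, the second highest share after 3.39% for the IDs from 91000 to 91999. The median absolute log2 difference of all its measured transcripts was 0.147, against 0.145 over the whole table. The block was singled out after the shares were seen, and neighbouring IDs may share a gene or probes, so the counts are not independent draws.

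All 12 members in this block lay below the median level, where 46.3% of its measured transcripts lay. They included the members ranked 4 and 5 by distance. The member ranked 12 measured 5461 and 6875 in control and 2948 and 2950 in sple, and the member ranked 14 measured 4544 and 4656 in control against 1044 and 2607 in sple. Control means of the 12 were 1.64 to 4.44 times the sple means, with a median of 2.09.

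The gene table placed 3 transcripts with IDs in this block, that of Uba1, the ubiquitin-activating enzyme, and 2 listed under several genes. All 3 lie on chromosome arm 2R, which also carries prickle. In the table's gene order along the arm, 177 genes separate prickle from the nearest of the 3 and 456 from the farthest, among 3649 genes on 2R. The 7 named transcripts numbered from 86000 to 88999 all lie on 2R, and each higher ID number has a lower start on the arm than the one before it. The other 2 blocks in that range held lower shares of members than 1.75%. Members made up 0.83% of the measured transcripts numbered 86000 to 86999 and 0.75% of those numbered 87000 to 87999, against 0.559% over the whole table. The genes and positions of the 12 members themselves are not known here, and their linkage to prickle was not tested. Uba1 itself measured 25331 and 27915 in control and 24424 and 23149 in sple, a distance of 0.053 log2 units.

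**Figure D5:**
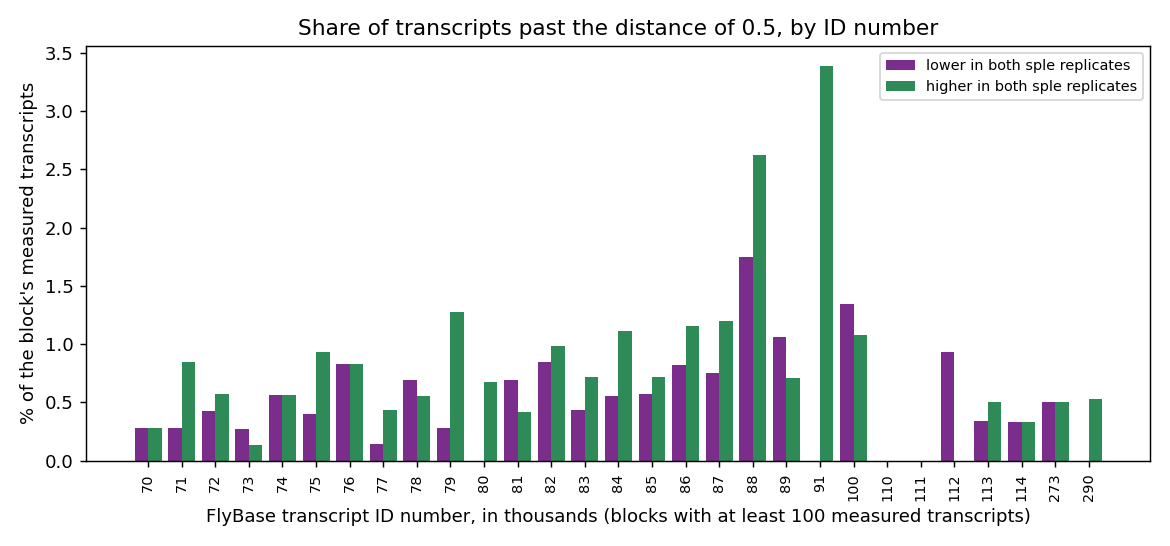
Share of measured transcripts at a distance of 0.5 or more, lower (purple) or higher (green) in both sple replicates, by block of 1000 FlyBase transcript ID numbers, for the 29 blocks with at least 100 measured transcripts. The block labelled 88 holds the highest share of lower transcripts, 1.75%, and the second highest share of higher ones, 2.62%.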

How the data were processed

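The authors deposited linear intensities, 1 for each transcript on each array. Per the submitters' processing notes they used RMA, its version, the annotation release and any later step being not given in the sources used here. Values ran from 27.42 to 45946, and the 4414 transcripts at the minimum on all 16 arrays were dropped. Log2 was taken with no added constant, and the 4 technical arrays of a biological replicate, which share its RNA, were averaged, so that n = 2 per genotype. The labels call these biological replicates without naming separate flies or cultures, so p-values measure only their spread. limma 3.58.1 in R 4.3.3 (lmFit, eBayes, Benjamini-Hochberg over all 16637 transcripts) was tested on simulated data first. The simulated differences were larger than that of any member, so that run does not show whether differences of the members' size could be called. Intensities given per replicate are geometric means. Members, lists and limits were chosen with earlier results of these data known. By the rule for named genes, without gene names only the 2 widest members are given by ID; other members are given by rank, as values without IDs.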

Additional observations from a re-analysis of the deposited data

Results flagged for a closer look

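One set of 4 technical arrays stood apart among 44 sets examined for the 10 widest members and for the median of all members, where chance flags about 1 in 20, or 2.2 sets. For the tenth member, 1 array of sple replicate 1 lay away from the other 3 by 0.842 of the range of the 4. Over all 93 members, 18 of 372 such sets held an array this far apart, where chance gives 18.6. With 2 biological replicates per genotype, no such comparison was made between them.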

How the results depend on the processing

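All alternatives were recorded as planned, although members, lists and limits were chosen with earlier results of these data known. The 93 members became 462 at a distance of 0.25 and 10 at a distance of 1, 17 with transcripts below the median level dropped, and 24 when the nearest arrays had to be 0.5 apart. Leaving out 1 technical array number from every biological replicate, 4 of the 16 arrays at a time, gave 75 to 107. Of biological replicates left out, the count without sple replicate 1 was 1463, and those without control replicates 1 and 2 and sple replicate 2 were 387, 406 and 343. These last 4 hold all 93 by construction, as fewer means must be apart. The median of technical arrays kept 79 of the 93, averaging linear intensities 93, median centring 71, and a second quantile normalization 76. Leaving out technical array numbers 1 to 4 kept 67, 77, 87 and 90. The median log2 difference of the 93 ran from -0.95 without sple replicate 1 to -0.68 without sple replicate 2. The difference of FBtr0076454 was -3.54 and -2.46 with control replicates 1 and 2 left out, and that of FBtr0076496 was -3.21 and -2.34.

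limma called 0 transcripts in each averaged fit. It called 111 (30 lower in sple) with all 16 arrays entered and a random block for biological replicate, which counts technical arrays as data. Whether members were among the 30 was not examined, and the cause of the higher count was not tested. Unadjusted p under 0.05 went from 413 to 215 without control replicate 2, 740 without sple replicate 2 and 3132 without sple replicate 1, where the lone replicate is assumed to vary like the 2 of the other genotype. With the replicate number as a block (replicate block) limma called 0, with 661 unadjusted. The deviations of replicates with equal numbers correlated at r = 0.26 over transcripts. The labels do not say whether replicates of equal number were handled together, and with 2 pairs this was not tested. Background was not measured in these values, so signal over background is unknown for the 76 members below the median level.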
